A study of Mus musculus with 35 samples.

Results

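Described here are IL-17-stimulated mouse cardiac fibroblasts (CFs) transfected with the siRNA IAMP-siR-2 (siR-2) set against the same cells transfected with a scrambled siRNA (Scrambled). They make up 6 of the 35 RNA-Seq samples of the series, chosen by their labels as the 3 siR-2 and the 3 Scrambled samples of the IL-17 experiment, and all 55487 genes of its table. IAMP is a microprotein encoded by the mouse gene 4930523C07Rik, and the study asked what its loss does to inflammatory genes of CFs. The cells were primary CFs of adult mice, plated on collagen, kept in medium with fetal serum, given siRNA for 24 h and IL-17 for another 24 h, so that all groups of this experiment carry both a transfection and the stimulus. The sources used here do not say whether the 3 samples of a group came from separate animals or cultures, and all p values below therefore measure the spread between these samples, which may be technical. A second siRNA to the same gene, IAMP-siR-1 (siR-1, 3 samples), and the untreated CFs with the same siRNAs (3 siR-2 and 3 Scrambled samples) served only to show where the effect of siR-2 differed.

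IL-17 is a cytokine of T cells and innate lymphocytes that acts on stromal cells through a receptor of the IL-17RA and IL-17RC chains and the adaptor Act1. In fibroblasts it drives NF-κB, C/EBP factors and mRNA stabilization, and so raises neutrophil-attracting CXC chemokines, IL-6, matrix metalloproteinases and acute-phase proteins. A separate programme, that of the interferon-stimulated genes, is switched on by interferon receptors and works through interferon-stimulated response elements, and the genes of mitosis carry elements known as cell cycle homology regions near their starts.

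Totals ran from 115275270 to 118812722 estimated counts in the 6 libraries, and CPM below are estimated counts scaled by library size with TMM factors. The main irregularity of the set lay in the Scrambled group. Albumin (Alb), the main plasma protein made by hepatocytes, had 6328, 34 and 4206 estimated counts in Scrambled 1, 2 and 3 and 10, 134 and 0 with siR-2. Apoa1, an apolipoprotein made in liver, had 1412, 5 and 1052 estimated counts in Scrambled and 18, 18 and 0 with siR-2. Ttr, a carrier of thyroid hormone made in liver, had 713, 0 and 437 in Scrambled and none with siR-2. Scrambled 1 and 3 thus stood far above all other libraries of the experiment, whereas Scrambled 2 lay near the siR-2 libraries and siR-2 library 2 was slightly raised. Summed over 49 hepatocyte genes and without TMM scaling, the level was 249, 4.28 and 168 CPM in the Scrambled libraries, 3.05, 6.7 and 2.97 CPM with siR-2 and 2.12 to 3.13 CPM with siR-1. A list of 7 erythroid genes summed to 1.53, 0.0415 and 0.934 CPM in Scrambled and 0.0951 to 0.256 CPM with siR-2. A gene is called below where edgeR's quasi-likelihood test gave an adjusted p of 0.05 or less together with a fold of 1.5 or more in either direction. By this rule 11 of the 23 hepatocyte genes tested were lower with siR-2, beside 13.7% of all genes tested. The median log2 fold change of the 23 was −5.44. Some of the 23, such as Fbp1 and Slc27a5, had no count with siR-2 and passed the filter on low counts only with the counts of Scrambled 1 and 3. Such genes could only come out lower, so that this share and median were partly fixed by those libraries. With Scrambled 1 and 3 left out, the median of the 21 hepatocyte genes tested was 0.00. That value is of Kng1, which had no count in Scrambled 2 or with siR-2. The others ran from −6.11 (Asgr1) to 7.47 (Serpina3k), most of them on few counts, so that this median does not show that the groups were alike. Results are therefore given also without Scrambled 1 and 3 where that changed the call of a named gene or moved the count of a list by more than 1.5 times. That fit rests on Scrambled 2 alone and assumes that it varies like the libraries of the other groups.

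**Figure D1:**
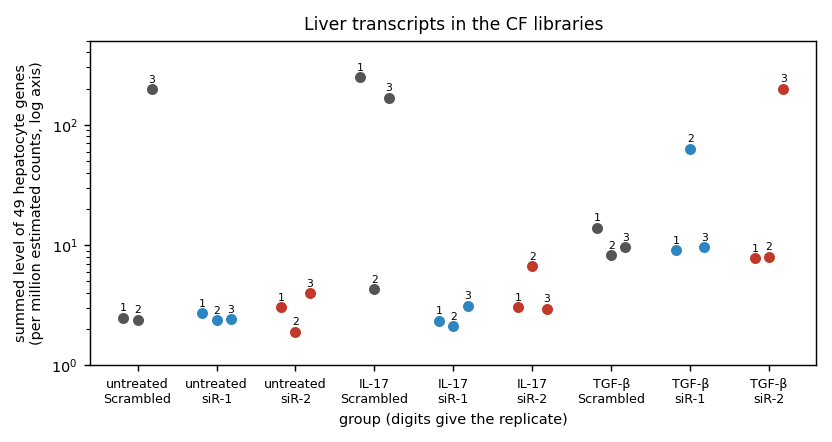
Summed level of 49 hepatocyte genes in the 27 CF libraries, as CPM without TMM scaling on a log axis, with groups on the x axis and the replicate number beside each point. In the IL-17 experiment Scrambled 1 and 3 stand at 249 and 168 CPM, and the other 7 libraries lie between 2.12 and 6.7 CPM.

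Most markers of the labelled cell type were high in every library, but Fap, a fibroblast marker too, was low at 4.42 to 6.55 CPM. Pdgfra, the PDGF receptor that marks fibroblasts, stood at 439.9, 422 and 444 CPM in Scrambled and 463, 465 and 460.3 CPM with siR-2, and its groups differed by a log2 fold change of only 0.09. Of 13 fibroblast genes 3 were called higher (Col3a1, Dcn and Fbln2) and 3 lower (Thy1, Tcf21 and Fn1). Over all genes tested 8.06% were called higher and 13.7% lower, which is the share to set beside each marker list. The levels of markers of other cells that such a culture could hold follow. The 15 cardiomyocyte genes summed to 72.4 to 79.6 CPM in Scrambled and 24.6 to 26.9 CPM with siR-2, nearly all of it Tnnt2. Myl7, Ckm and Myh7 were at 0 in all libraries, and 3 of 7 tested genes were called lower. Of these, Mybpc3 had 46, 42 and 18 estimated counts in Scrambled and none with siR-2. It passed the filter on low counts through Scrambled and could only be called lower. The 15 macrophage genes summed to 70.1 to 71.6 CPM in Scrambled and 87.6 to 95.7 CPM with siR-2, with 1 gene called higher and 3 lower (2 and 1 without Scrambled 1 and 3). The 13 endothelial genes summed to 633 to 666 and 597 to 621 CPM, mostly Eng, with 1 called in each direction, no more than the shares of all genes. The 10 smooth muscle and pericyte genes summed to 507 to 509.7 CPM in Scrambled and 257 to 276 CPM with siR-2, with 5 called lower and 1 higher, the latter (Rgs5) not without Scrambled 1 and 3. The 14 neutrophil and lymphocyte genes summed to 0.34 to 0.443 CPM in Scrambled and 0.768 to 0.946 CPM with siR-2, and only S100a8 among them was abundant enough to be tested. Epicardial genes summed to 111 to 115 and 69.8 to 72.8 CPM with 1 of 9 lower (2 without Scrambled 1 and 3), adipocyte genes to 259 to 280.2 and 465 to 508 CPM with 1 of 3 higher (2 without), and Schwann cell genes to 25.8 to 27.7 and 32.4 to 34 CPM with 1 of 6 higher (0 of 7 without). The part of these cells in the results below was not tested. In these bulk samples fewer cells of a type and less RNA per cell cannot be told apart.

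The targeted gene, which the annotation lists as protein-coding, was low in all siR-2 libraries. 4930523C07Rik (ENSMUSG00000090394, chromosome 1, 160044382 to 160080208, plus strand, GRCm38) had 18.5, 20.8 and 16.8 CPM in Scrambled, 1.86, 1.66 and 1.65 CPM with siR-2 and 2.34, 2.88 and 2.54 CPM with siR-1. Its log2 fold change with siR-2 was −3.44 (standard error 0.112, edgeR adjusted p = 7.52e-14), and no siR-2 library overlapped a Scrambled one.

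Among 19906 genes that passed the filter on low counts, siR-2 gave 1605 calls of a higher level (8.06%) and 2718 of a lower level (13.7%). The median log2 fold change over all tested genes was −0.02, and falls outnumbered rises also among the 13091 genes whose mean reached 1 CPM, where 1259 were higher and 2140 lower. With Scrambled 1 and 3 left out, 1564 of 21955 genes (7.12%) were higher and 2268 (10.3%) lower. Of the genes called with all libraries, 1288 of the higher and 2152 of the lower were called the same way without these 2, and no gene was called in the opposite direction. Protein-coding genes were called lower in 2406 of 15072 cases and higher in 1340, and lincRNAs lower in 69 of 744 and higher in 59.

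**Figure D2:**
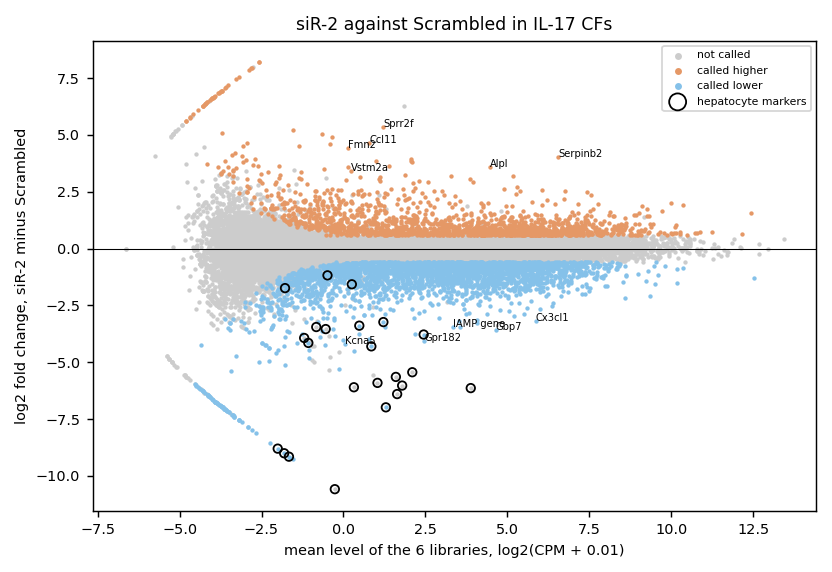
Log2 fold change of siR-2 over Scrambled in IL-17 CFs for the 19906 tested genes (y axis) against the mean level of the 6 libraries as log2 of CPM plus a small constant (x axis). Orange and blue points are genes called higher and lower, black rings the hepatocyte markers, most of which lie below −3, and the slanted rows of points at low levels are genes with no counts in 1 of the groups, whose fitted values are no estimate of size.

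The largest rises, among those that reached a mean of 1 CPM, whose siR-2 libraries all lay above the Scrambled libraries and which were called also without Scrambled 1 and 3, included those of Sprr2f, Ccl11, Fmn2, Serpinb2, Mgam, Gm3776, Sprr2e, Sprr2g, C7, Alpl and Vstm2a. Serpinb2, plasminogen activator inhibitor of type 2, was the most abundant of these with siR-2. It had 11.5, 9.89 and 11.5 CPM in Scrambled and 182, 176 and 175 CPM with siR-2, a log2 fold change of 4.02 (standard error 0.0565, edgeR adjusted p = 8.84e-18). Alpl, tissue-nonspecific alkaline phosphatase, had 3.86, 2.59 and 3.93 CPM in Scrambled and 42.9, 38.2 and 42.4 CPM with siR-2, a log2 fold change of 3.57 (standard error 0.136, edgeR adjusted p = 1.86e-10). Both genes went from a low to a clear level with little spread among the siR-2 libraries. The small proline-rich genes Sprr2e, Sprr2f and Sprr2g, whose products belong to the cornified envelope of skin, all rose. Sprr2f had 0.0912, 0.183 and 0.0574 CPM in Scrambled and 5.08, 4.06 and 4.39 CPM with siR-2. Sprr2e had 0.431, 0.39 and 0.811 CPM in Scrambled and 7.5, 7.6 and 8.29 CPM with siR-2. Sprr2g had 0.448, 0.722 and 0.516 CPM in Scrambled and 8.28, 7.18 and 8.53 CPM with siR-2. Their log2 fold changes, in this order, were 5.34, 3.84 and 3.83, but the family's sequences are much alike, and how the quantification divided reads among them is uncertain.

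Ccl11, eotaxin, an attractant of eosinophils, had 0.174, 0.125 and 0.0983 CPM in Scrambled and 3.28, 2.96 and 3.65 CPM with siR-2, a log2 fold change of 4.63 (standard error 0.288, edgeR adjusted p = 3.65e-10). The Scrambled values rest on 21, 15 and 12 estimated counts, about 3 read pairs a library, so that the size of this rise is imprecise, as is that of Sprr2f, with 11, 22 and 7. Fmn2, a formin that nucleates actin filaments, had 0.0995, 0.125 and 0.0656 CPM in Scrambled, at or under 3 read pairs in each library, and 2.36, 1.97 and 1.87 CPM with siR-2, at least 13.9-fold higher when the floor of 18 estimated counts per library is used. Both were nearly silent in Scrambled. Mgam, maltase-glucoamylase, had 0.647, 0.357 and 0.541 CPM in Scrambled and 9.3, 7.4 and 6.88 CPM with siR-2, a log2 fold change of 3.93. C7, a component of the complement attack complex, was not counted in Scrambled 1. It had 0, 0.299 and 0.205 CPM in Scrambled and 1.93, 1.72 and 2.4 CPM with siR-2, a log2 fold change of 3.58 (standard error 0.881, edgeR adjusted p = 0.0115), the widest error among them. Gm3776, a glutathione S-transferase gene with close relatives, and Vstm2a, which encodes a secreted immunoglobulin-domain protein, had log2 fold changes of 3.85 and 3.41.

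The largest falls by the same rule were those of Kcna5, Gpr182, Gbp4, Tnfsf10, Gstt1, Gbp7, Tgtp2, Dusp27, 4930523C07Rik itself, Fgl2, Cx3cl1 and Nrk. Cx3cl1, fractalkine, a membrane-bound chemokine, had 105, 106 and 104 CPM in Scrambled and 10.7, 10.2 and 13.4 CPM with siR-2, a log2 fold change of −3.20 (standard error 0.0967, edgeR adjusted p = 1.02e-10). Gpr182, an atypical chemokine receptor, had 10.7, 9.24 and 11.2 CPM in Scrambled and 0.46, 0.76 and 0.657 CPM with siR-2, a log2 fold change of −4.05 (standard error 0.24, edgeR adjusted p = 2.74e-09). Neither gene varied much among the Scrambled libraries. Gbp7 and Gbp4, interferon-inducible guanylate-binding GTPases, and Tgtp2, an interferon-inducible GTPase of another family, fell as well. Gbp7 had 51.5, 54 and 33.1 CPM in Scrambled and 3.58, 4.49 and 3.63 CPM with siR-2. Gbp4 had 5.04, 2.79 and 1.76 CPM in Scrambled and 0.191, 0.256 and 0.164 CPM with siR-2. Tgtp2 had 24.4, 25.9 and 14.6 CPM in Scrambled and 1.85, 2.08 and 1.94 CPM with siR-2. In these 3 genes Scrambled 3 was the lowest of its group, and it still lay well above the siR-2 libraries. Their log2 fold changes were −3.57, −3.96 and −3.46, and all have close relatives with which they may share reads.

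Tnfsf10 (TRAIL), a death ligand that interferons induce, had 3.42, 2.76 and 1.55 CPM in Scrambled and 0.104, 0.273 and 0.19 CPM with siR-2, a log2 fold change of −3.76. Fgl2, a relative of fibrinogen that exists in secreted and membrane-bound forms, had 34.6, 30.2 and 26.1 CPM in Scrambled and 3.09, 2.98 and 3.28 CPM with siR-2, a log2 fold change of −3.28. Nrk, a kinase of the germinal centre kinase family, had 22, 19.6 and 21.1 CPM in Scrambled and 2.11, 2.71 and 2.07 CPM with siR-2, a log2 fold change of −3.19. Scrambled 3 was again the lowest of its group in Tnfsf10 and Fgl2, but not in Nrk. Gstt1, a glutathione S-transferase of the theta class, had 9.25, 8.38 and 7.62 CPM in Scrambled and 0.581, 0.58 and 0.709 CPM with siR-2, a log2 fold change of −3.75. Dusp27, an atypical dual-specificity phosphatase, had 4.38, 4.43 and 4.4 CPM in Scrambled and 0.364, 0.435 and 0.407 CPM with siR-2, a log2 fold change of −3.45. Both had tight groups. Kcna5, the voltage-gated potassium channel Kv1.5, had 2.22, 2.05 and 1.49 CPM in Scrambled and stayed at 12 estimated counts in each siR-2 library, at least 12.4-fold lower against the floor of 18.

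**Figure D3:**
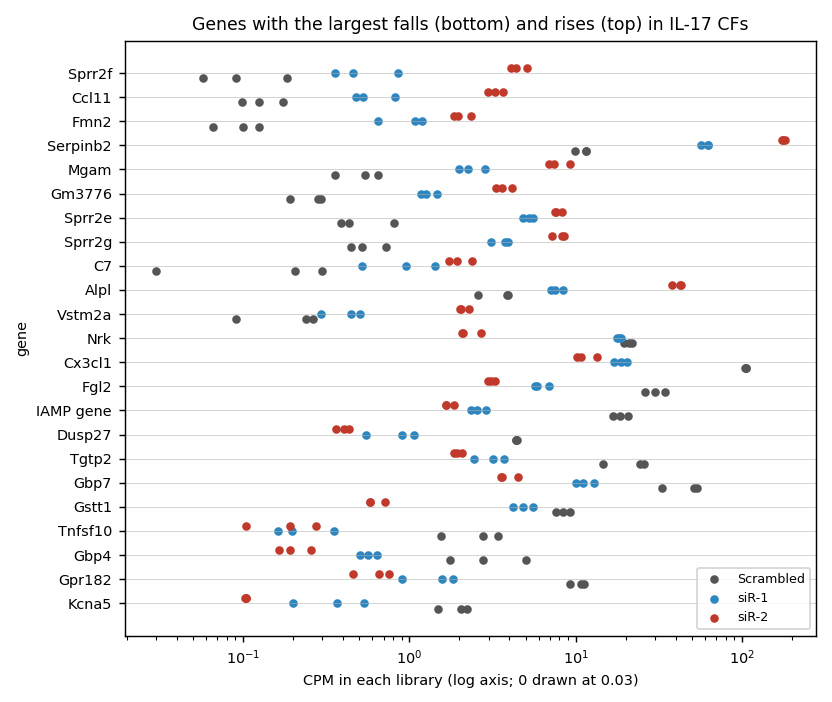
CPM of the 23 genes named above for the largest rises and falls in each IL-17 library, on a log axis, with grey points for Scrambled, blue for siR-1 and red for siR-2 (a value of 0 is drawn at 0.03). In every gene the red and grey points do not overlap, as the rule that chose the genes requires, and Nrk shows siR-1 near Scrambled, at 18.8, 18.3 and 17.7 CPM.

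Genes known to respond to IL-17 were mostly higher with siR-2, but with exceptions among the chemokines. Of 27 tested genes of a list of 31, 17 were called higher, 2 lower and 8 not called, with a median log2 fold change of 0.87 beside −0.02 over all genes. Il6, the cytokine of the acute phase, had 279, 251 and 252 CPM in Scrambled and 793, 744 and 779.9 CPM with siR-2, a log2 fold change of 1.57 (standard error 0.0411, edgeR adjusted p = 6.24e-15). Cxcl3, a ligand of the neutrophil receptor CXCR2, had 6.75, 6.97 and 7.63 CPM and 67.9, 62.3 and 66.5 CPM, a log2 fold change of 3.20 (standard error 0.0641, edgeR adjusted p = 2.81e-16). Each siR-2 library stood far above all Scrambled libraries in both genes, and 8.06% of all genes tested were called higher. Cxcl1, a ligand of the same receptor, moved the other way, from 342, 310.3 and 308 CPM in Scrambled to 203, 192 and 197 CPM with siR-2, a log2 fold change of −0.70 (standard error 0.0388, edgeR adjusted p = 8.09e-11). Cxcl5, another CXCR2 ligand, had 1021, 957 and 1004 CPM and 1503, 1381 and 1511 CPM, and its log2 fold change of 0.56 (standard error 0.0374, edgeR adjusted p = 9.53e-10) fell just short of the limit. Without Scrambled 1 and 3 it passed, at 0.63. Cxcl2 was called higher at 1.53 and Cxcl10, which interferons induce and which attracts T cells, lower at −2.52, and in all 3 of 11 tested CXC chemokines were higher and 3 lower. The third lower one, Cxcl11, was not called without Scrambled 1 and 3.

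The window before the start of Cxcl3 is shown because it holds letters of the NF-κB consensus, GGGNNTTTCC, in capitals, and because Cxcl3 had the largest called rise of its family. The sequence is from RefSeq on GRCm38.p6, written 5′ to 3′ on the strand of the gene, 250 bases before its start and 50 after, as are all promoters below.
Cxcl3 promoter (chr5:90785851-90786150, plus strand): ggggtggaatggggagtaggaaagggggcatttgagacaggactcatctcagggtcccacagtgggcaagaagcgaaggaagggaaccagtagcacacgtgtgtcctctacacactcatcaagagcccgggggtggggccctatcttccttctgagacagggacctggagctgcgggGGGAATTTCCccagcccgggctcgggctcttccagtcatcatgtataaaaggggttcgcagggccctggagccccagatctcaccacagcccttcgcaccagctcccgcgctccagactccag
These letters, read on both strands, were in the windows of 7 of 19 matched members of the IL-17 list (Il6, Cxcl1, Cxcl2, Cxcl3, Ccl20, Tnfaip3 and Steap4). They were in 1.63% of 32817 windows and in those of 1.99% of tested genes with a window. The 7 genes included 5 called higher and 2 called lower, and a match of letters describes the window only.

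Of the 10 IL-17 pathway genes the study picked from its own CF libraries, 8 were higher, 1 lower and 1 not called, with a median of 1.78, and since they were picked on related samples their direction is no independent evidence. Mmp3, stromelysin-1, had 398, 396 and 441 CPM in Scrambled and 1606, 1598 and 1682 CPM with siR-2, a log2 fold change of 1.98 (standard error 0.0423, edgeR adjusted p = 1.69e-15). Mmp13, a collagenase, had 2.19, 2.41 and 2.47 CPM in Scrambled and 13.8, 12.9 and 14.3 CPM with siR-2, a log2 fold change of 2.54. Both metalloproteinases rose by several times with no overlap. Ccl7, an attractant of monocytes, had 255, 250.5 and 259 CPM in Scrambled and 731, 691 and 721 CPM with siR-2, a log2 fold change of 1.49. Cebpb, a transcription factor of the IL-17 response, had 88.1, 94.7 and 84.3 CPM in Scrambled and 142, 139 and 145 CPM with siR-2, a log2 fold change of 0.67. Neither gene overlapped between the groups. S100a8, a calcium-binding protein best known from neutrophils, had only 0.133, 0.0747 and 0 CPM in Scrambled and 0.894, 0.572 and 0.727 CPM with siR-2, at least 4.91-fold higher against the floor. Among other secreted products, Saa3, an acute-phase apolipoprotein, rose by 2.39 on the log2 scale, Lcn2, an iron-binding lipocalin, by 1.10, and Ccl8, an attractant of monocytes, by 2.87, whereas Steap4, an iron and copper reductase, was lower at −0.76. Ccl2, the main monocyte chemokine, had a log2 fold change of −0.58, just under the limit, and was called lower without Scrambled 1 and 3, at −0.60.

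Few components of NF-κB were called, whereas receptor signalling held a larger share of higher genes than all genes did. Over all genes tested 8.06% were called higher and 13.7% lower. Of 23 tested genes of IL-17 receptor signalling 5 were higher and 2 lower (1 lower without Scrambled 1 and 3), with a median of 0.15. Il17ra, the common receptor chain, was called higher at 0.84 (standard error 0.0355, edgeR adjusted p = 2.45e-12) and Il17rd, another member of the receptor family, lower at −0.78 (standard error 0.0743, edgeR adjusted p = 8.72e-08). Tnfaip3 (A20), a deubiquitinase that restrains NF-κB, was higher at 1.16. Of 15 NF-κB subunits and regulators only Nfkbie, an inhibitor, was called higher (0.68) and only Cyld, a deubiquitinase, lower (−0.78), shares no larger than those over all genes. The median of the 15 was 0.26 beside −0.02 over all genes, a small shift under the limit. Rela, the p65 subunit, had 106, 113 and 113 CPM in Scrambled and 119, 122 and 119 CPM with siR-2, a log2 fold change of 0.12 (standard error 0.0374, edgeR adjusted p = 0.0128). Nfkb1, the precursor of the p50 subunit, had 307, 305 and 302 CPM in Scrambled and 368, 372 and 371 CPM with siR-2, a log2 fold change of 0.28 (standard error 0.0251, edgeR adjusted p = 4.05e-08). Nfkbia, the inhibitor IκBα, had 59, 60.8 and 61 CPM in Scrambled and 47.7, 44 and 48.2 CPM with siR-2, a log2 fold change of −0.37 (standard error 0.0402, edgeR adjusted p = 4.77e-07). All 3 differences passed on p and none on size. The kinases Chuk (IKKα) and Ikbkb (IKKβ) had log2 fold changes of 0.35 and 0.46, also under the limit.

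Cytokines of other families moved in both directions. Of 21 tested genes of the IL-1 and TNF families 5 were higher and 3 lower. This count and those of the lists that follow stand beside 8.06% of all genes higher and 13.7% lower. Il33, an alarmin of stromal cells, had 7.95, 6.89 and 6.75 CPM in Scrambled and 31.7, 29.4 and 26.9 CPM with siR-2, a log2 fold change of 2.03 (standard error 0.0796, edgeR adjusted p = 8.67e-13). Il1a, another alarmin, was higher at 1.97 and Tnfsf15 at 2.19, whereas Tnfsf11 (RANKL) was lower at −1.20 beside the fall of Tnfsf10. In the prostaglandin list 9 of 18 tested genes were higher and 1 lower (8 and 0 without Scrambled 1 and 3). Ptgs2 (COX-2) had a log2 fold change of 0.72, Ptges, the inducible prostaglandin E synthase, of 1.08, and Hpgd, the enzyme that degrades prostaglandins, of 2.27. Of 15 tested acute-phase and iron genes 9 were higher and 1 lower, and of 19 metalloproteinases 5 were higher, among them Mmp8 at 2.60, and 2 lower.

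Genes of hypoxia signalling were examined as 2 lists, of the factor with its sensors and of its targets. HIF-1α is stabilized when prolyl hydroxylases lack oxygen, binds hypoxia response elements and raises glycolytic genes, and HSP90 is among the chaperones that protect it. Of 11 HIF subunits, oxygen sensors and chaperones 1 was called, Egln3, a prolyl hydroxylase that is itself a HIF-1 target, and it was higher (2 of 11 without Scrambled 1 and 3), a share near the 8.06% of all genes. Hif1a mRNA had 328, 326 and 330.2 CPM in Scrambled and 398, 401 and 407 CPM with siR-2, a log2 fold change of 0.29 (standard error 0.025, edgeR adjusted p = 2.28e-08). Hsp90aa1, the inducible HSP90, had 844, 843 and 876 CPM in Scrambled and 1008, 1073 and 989.9 CPM with siR-2, a log2 fold change of 0.26. Hsp90ab1, the constitutive form, had 1669.5, 1659.9 and 1678 CPM in Scrambled and 2084, 2188 and 2111 CPM with siR-2, a log2 fold change of 0.35. All 3 lay above Scrambled in every siR-2 library and under the limit of size. The median of the 11 genes was 0.28 beside −0.02 over all genes. Of the 40 HIF-1 target genes 16 were higher and 2 lower, with a median of 0.42. Aldoc, an aldolase of glycolysis, rose from 0.92, 1.05 and 1.14 to 2.79, 3.66 and 2.74 CPM, a log2 fold change of 1.57 (standard error 0.187, edgeR adjusted p = 1.58e-06). Bnip3, a mitophagy receptor, was higher at 1.37 and Slc2a1 (GLUT1), the basal glucose transporter, at 0.90. Vegfa, a much used readout of HIF-1, had 253, 262 and 246 CPM in Scrambled and 267, 267 and 262 CPM with siR-2, a log2 fold change of 0.06 (standard error 0.0283, edgeR adjusted p = 0.0796), and the groups overlapped. Edn1, endothelin-1, and Loxl2, a collagen cross-linking oxidase, were lower at −2.22 and −1.20. In the glycolysis list, which shares members with the HIF-1 list, 9 of 23 genes were higher, with Pfkl, liver-type phosphofructokinase, at 1.26, and only the neuronal enolase Eno2 was lower, at −1.43.

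The promoter of Aldoc, the list member with the largest called rise, is shown with the core of the hypoxia response element, ACGTG read on both strands, in capitals.
Aldoc promoter (chr11:78322823-78323122, plus strand): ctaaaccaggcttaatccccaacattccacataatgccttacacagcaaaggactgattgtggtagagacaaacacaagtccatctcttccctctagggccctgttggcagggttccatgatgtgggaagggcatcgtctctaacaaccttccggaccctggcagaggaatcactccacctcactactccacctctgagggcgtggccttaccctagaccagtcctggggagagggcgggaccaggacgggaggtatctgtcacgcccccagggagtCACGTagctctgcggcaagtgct
The core was in windows of 23 of 32 matched HIF-1 targets, in 19.6% of all windows, and in those of 27.9% of 12783 tested genes that had at least 1 window.

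Genes that NRF2 controls were higher as a group. NRF2, held back by KEAP1, binds antioxidant response elements and raises enzymes of glutathione synthesis, NADPH supply and detoxification. Of 29 tested targets 20 were higher and 1 lower, beside 8.06% and 13.7% of all genes. The median was 0.75, and 0.78 without Scrambled 1 and 3. Nqo1, a quinone reductase, had 78.9, 74.1 and 71.9 CPM in Scrambled and 124, 132 and 123 CPM with siR-2, a log2 fold change of 0.75 (standard error 0.0394, edgeR adjusted p = 3.90e-11). Gclc and Gclm, the subunits of the enzyme that limits glutathione synthesis, were higher at 1.11 and 1.07. Gclm had 91.2, 88.9 and 88.1 CPM in Scrambled and 185, 195 and 183 CPM with siR-2, without overlap. Glutathione S-transferases of the alpha class were among the largest rises. Gsta1 had 0.622, 0.731 and 0.721 CPM in Scrambled and 6.92, 7.44 and 5.41 CPM with siR-2, a log2 fold change of 3.25, and Gsta2 and Gsta4 had 3.05 and 2.29. Gsta1, Gsta2 and Gm3776 are near copies, and the division of reads among them is uncertain. Taldo1, transaldolase of the pentose phosphate pathway, had a log2 fold change of 2.50, and it and Gsta4 were chosen after their values were seen. The single lower member was Keap1 itself at −0.59 (standard error 0.0446, edgeR adjusted p = 4.68e-09), close to the limit, which it missed under some of the settings tried.

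Mgst1, a microsomal glutathione S-transferase, had the largest called rise among targets whose window held TGACNNNGC, the core of the antioxidant response element (capitals, either strand). It was chosen after its value was seen. Its log2 fold change was 1.59 (standard error 0.0419, edgeR adjusted p = 6.47e-15).
Mgst1 promoter (chr6:138140277-138140576, plus strand): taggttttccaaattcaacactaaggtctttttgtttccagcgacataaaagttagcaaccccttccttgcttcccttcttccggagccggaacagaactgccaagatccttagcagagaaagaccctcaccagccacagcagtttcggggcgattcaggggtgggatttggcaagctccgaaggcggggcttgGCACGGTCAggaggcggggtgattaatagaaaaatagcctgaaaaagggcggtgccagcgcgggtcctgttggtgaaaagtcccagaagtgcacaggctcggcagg
These letters were in windows of 11 of 25 matched targets, in 12.4% of all windows and in those of 16.6% of tested genes with a window.

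Interferon-stimulated genes were lower almost without exception. Of 37 tested genes 33 were called lower and none higher, beside 13.7% of all genes, and the median was −1.19. Summed over the list, the level was 2615, 2937 and 1871 CPM in the Scrambled libraries and 1179, 1247 and 1260.4 CPM with siR-2. Scrambled 3 was the lowest of its group, and no siR-2 library reached it. Ifit1, which binds foreign RNA caps, had 114, 105 and 57.3 CPM in Scrambled and 33.1, 39.3 and 36.1 CPM with siR-2, a log2 fold change of −1.34 (standard error 0.26, edgeR adjusted p = 0.00474). Ifit2 and Ifit3, of the same family, had log2 fold changes of −1.28 and −1.25, and Mx1, an antiviral dynamin-like GTPase, of −2.66, the second largest fall of the list after Gbp7. The 4 members not called were Bst2, Ifi35, Ifitm3 and Zbp1 with log2 fold changes of −0.22, −0.40, −0.36 and −0.15. Without Scrambled 1 and 3 the median was −1.43. That fit keeps only Scrambled 2, which had the highest sum of its group, so that a larger fall followed from the library kept.

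Promoters of Ifit1, the first gene of the list, and of Gbp7, its largest fall, are shown with matches to the interferon-stimulated response element, GAAANNGAAA read on both strands, in capitals.
Ifit1 promoter (chr19:34640639-34640938, plus strand): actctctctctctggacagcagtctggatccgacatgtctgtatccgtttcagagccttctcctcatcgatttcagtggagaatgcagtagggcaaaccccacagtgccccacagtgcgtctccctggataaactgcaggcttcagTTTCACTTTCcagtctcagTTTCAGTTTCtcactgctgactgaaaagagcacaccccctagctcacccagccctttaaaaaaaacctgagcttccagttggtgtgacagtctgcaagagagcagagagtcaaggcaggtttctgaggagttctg
Gbp7 promoter (chr3:142530086-142530385, plus strand): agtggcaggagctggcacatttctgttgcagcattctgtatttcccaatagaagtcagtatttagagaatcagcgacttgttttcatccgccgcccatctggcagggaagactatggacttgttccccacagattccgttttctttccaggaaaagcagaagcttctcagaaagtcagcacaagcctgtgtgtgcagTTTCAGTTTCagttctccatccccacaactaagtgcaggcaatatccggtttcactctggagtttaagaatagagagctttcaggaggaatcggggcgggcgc
Ifit1 held 2 such matches and Gbp7 1. Of 28 list members matched to RefSeq windows 17 held the letters, as did 3.43% of all windows and 3.65% of tested genes with a window.

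The cell cycle genes were lower as uniformly. Of 31 mitosis genes 30 were called lower, beside 13.7% of all genes, with a median of −1.69. The exception, Pttg1, securin, had 12.9, 13.7 and 12.6 CPM in Scrambled and 15.6, 15.7 and 16.4 CPM with siR-2, a log2 fold change of 0.28. The list summed to 2601, 2588 and 2658 CPM in Scrambled and 861, 815 and 799.9 CPM with siR-2. Cdk1, the kinase that drives entry into mitosis, had 108 ± 0.425 CPM in Scrambled (SD, n = 3) and 39.2 ± 1.27 CPM with siR-2 (SD, n = 3), a log2 fold change of −1.47 (standard error 0.0375, edgeR adjusted p = 4.51e-15). Mki67, the proliferation marker Ki-67, had 264, 249 and 275 CPM in Scrambled and 70.8, 64.8 and 64 CPM with siR-2, a log2 fold change of −1.98 (standard error 0.0492, edgeR adjusted p = 2.58e-14). The 3 libraries of a group lay close together in both genes. The cyclins Ccnb1 and Ccnb2 had log2 fold changes of −1.47 and −1.77, and Nuf2, a kinetochore protein, fell most, to −2.68.

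Of 31 genes of DNA replication 27 were lower and none higher, beside 13.7% and 8.06% of all genes, with a median of −1.13. Mcm2, Mcm3 and Mcm4, subunits of the replicative helicase, had log2 fold changes of −1.20, −0.92 and −0.95, and E2f2, a factor that drives S phase genes, of −1.68. Ccnd1, cyclin D1, which opens the cycle, had 1049, 1042 and 1052 CPM in Scrambled and 242, 254 and 243 CPM with siR-2, a log2 fold change of −2.09 (standard error 0.03, edgeR adjusted p = 8.84e-18). Cdkn1a, the inhibitor p21, was not called, with 396, 424 and 399 CPM in Scrambled, 331, 349 and 331 CPM with siR-2 and a log2 fold change of −0.27. In the list of CDK inhibitors, D cyclins and p53 targets 11 of 28 were lower and 1 higher (12 and 0 without Scrambled 1 and 3), with Trp53inp1, a p53 target, at −1.84.

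The promoter of Mki67, the mitosis gene with the largest fall among those with a match, is shown with the core of the cell cycle homology region, TTTGAA on either strand, in capitals.
Mki67 promoter (chr7:135716330-135716629, minus strand): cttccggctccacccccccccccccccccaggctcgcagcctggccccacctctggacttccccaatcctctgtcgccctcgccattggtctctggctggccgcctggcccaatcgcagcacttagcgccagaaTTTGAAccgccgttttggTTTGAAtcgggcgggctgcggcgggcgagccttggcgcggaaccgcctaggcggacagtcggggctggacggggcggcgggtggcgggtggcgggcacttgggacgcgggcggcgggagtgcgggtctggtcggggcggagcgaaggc
The letters were in windows of 19 of 27 matched mitosis genes and 5 of 26 matched replication genes, in 17.9% of all windows and in those of 15.2% of tested genes with a window.

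**Figure D4:**
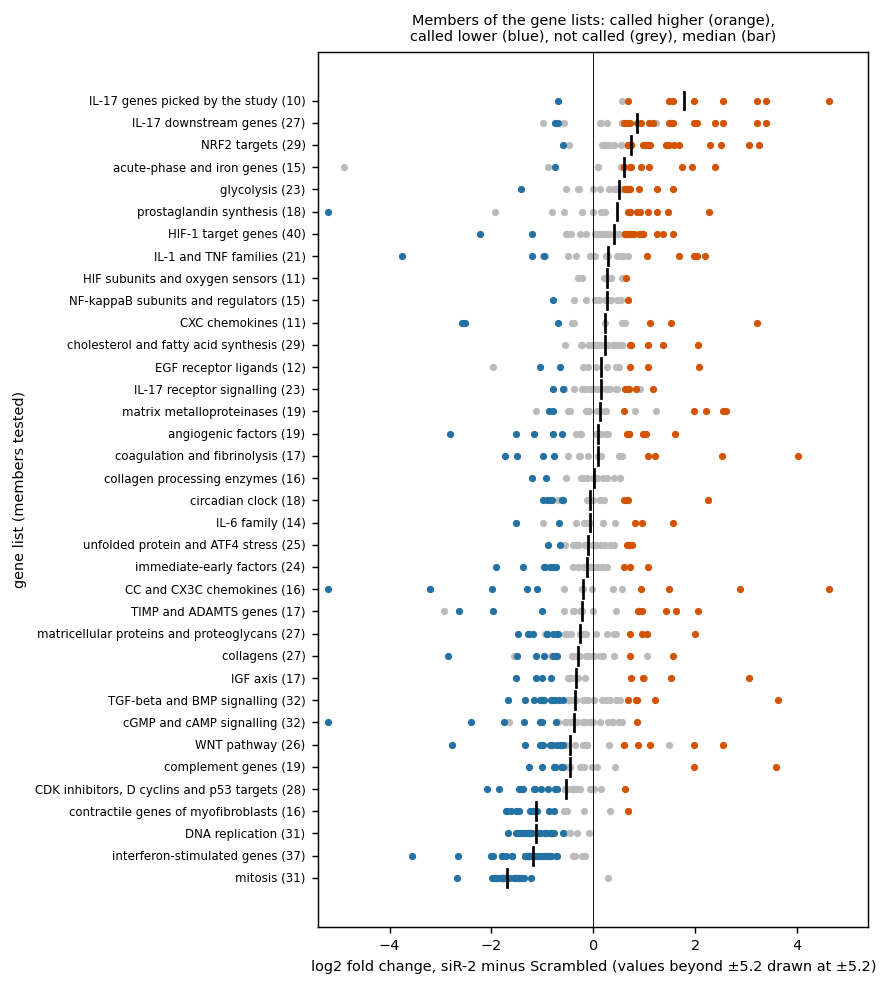
Log2 fold change of siR-2 over Scrambled (x axis) for each tested member of the 36 gene lists (rows, with the number tested), with orange for members called higher, blue for lower, grey for not called and a bar at the median. Mitosis, interferon-stimulated, DNA replication and contractile genes lie to the left, with medians from −1.69 to −1.13. To the right lie IL-17 downstream genes, the IL-17 genes the study picked and NRF2 targets, with medians from 0.75 to 1.78. The list of IL-17 receptor signalling lies between, at 0.15.

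Contractile genes of myofibroblasts, the activated state in which fibroblasts build smooth muscle actin fibres, were mostly lower. Of 16 genes 11 were called lower and 1 higher, beside 13.7% and 8.06% of all genes, with a median of −1.13. Acta2, smooth muscle α-actin, had 901, 879.7 and 901 CPM in Scrambled and 526, 517 and 523 CPM with siR-2, a log2 fold change of −0.78 (standard error 0.0281, edgeR adjusted p = 3.05e-13). Tagln (SM22) and Cnn1 (calponin), both actin-binding, had log2 fold changes of −1.24 and −1.46, and Myl9, a myosin light chain, and Ldb3, a Z-disc protein, of −1.68 and −1.71. Cald1, caldesmon, was higher at 0.68, with 1284, 1252 and 1336 CPM in Scrambled and 2063, 2113 and 2042 CPM with siR-2. The list summed to 3274 to 3383 CPM in Scrambled and 3448 to 3509 CPM with siR-2. CArG boxes, to which serum response factor binds, were in windows of 2 of 12 matched members (Myl9 and Ldb3). They were in 1.63% of all windows and in those of 1.63% of tested genes with a window.

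Matrix genes moved in both directions. Of 27 collagens 2 were higher, a share near the 8.06% of all genes, and 7 were lower, beside 13.7% of all genes. Col1a1 and Col1a2, the chains of collagen I, were not called, at −0.14 and −0.32, whereas Col3a1, collagen III, had 2782, 2816 and 2756 CPM in Scrambled and 8191, 7946 and 8505 CPM with siR-2, a log2 fold change of 1.56 (standard error 0.0293, edgeR adjusted p = 1.48e-16). Col6a3, a chain of microfibrillar collagen VI, had 80.7, 76.8 and 81.9 CPM in Scrambled and 11, 10.9 and 11 CPM with siR-2, a log2 fold change of −2.86 (standard error 0.056, edgeR adjusted p = 2.37e-16). These opposite shifts were both far beyond the spread between libraries. Of 27 matricellular proteins and proteoglycans 4 were higher and 9 lower. Fn1, fibronectin, had 8278, 8329 and 8377 CPM in Scrambled and 3511, 3385 and 3455 CPM with siR-2, a log2 fold change of −1.27 (standard error 0.0276, edgeR adjusted p = 6.93e-16), Postn, periostin, was lower at −0.90, and Has1, a hyaluronan synthase, higher at 1.99. Of 32 genes of TGF-β and BMP signalling 12 were lower and 5 higher, with Id4, an inhibitor of basic helix-loop-helix factors, at −1.68, Smad6, an inhibitory SMAD, at −1.33 and the receptor Bmpr1b at 1.22. Among 16 collagen processing enzymes only Loxl2 and P4ha3 were called, both lower, again a share near that of all genes.

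The remaining lists had members in both directions and medians between −0.45 and 0.22. Over all genes tested 8.06% were called higher and 13.7% lower. Some counts below lay near these shares, such as those of ATF4 stress and the falls of the IL-6 family. Of 17 coagulation genes 4 were higher and 4 lower. F3, tissue factor, which starts coagulation, had 33.9, 30.8 and 32.1 CPM in Scrambled and 190.1, 193 and 173 CPM with siR-2, a log2 fold change of 2.52 (standard error 0.0436, edgeR adjusted p = 5.31e-17), and Plau, urokinase, was lower at −1.73. Of 17 genes of the IGF axis 4 were called in each direction, with Igfbp5, an IGF-binding protein, at 3.06 and Igf1 at −1.51. Igfbp5 had 2.85, 3.02 and 3.46 CPM in Scrambled and 29.6, 19.4 and 29 CPM with siR-2. Of 19 angiogenic factors 6 were higher and 5 lower, with Pgf, placental growth factor, at −2.82, Angptl2 at −1.51 and Fgf10 at 1.60. Among 12 genes of the EGF receptor and its ligands 3 were higher and 2 lower (1 lower without Scrambled 1 and 3), and the ligands Areg (amphiregulin) and Ereg (epiregulin) had log2 fold changes of 2.08 and 1.08. Of 29 genes of lipid synthesis 5 were higher and none lower, with Insig1, a regulator of sterol synthesis, at 2.05 and Mvd, a mevalonate enzyme, at 1.36. In the clock list 4 of 18 were higher and 6 lower, with Hlf at 2.25 and Clock at −0.99. Of 24 immediate-early factors 3 were higher and 7 lower, with Fosb at −1.91, Egr1 at −1.38 and Nr4a3 at 1.08. The counts higher and lower were 2 and 7 of 19 for complement, 5 and 10 of 26 for the WNT pathway, 1 and 7 of 32 for cGMP and cAMP signalling (3 and 6 of 33 without Scrambled 1 and 3), 6 and 3 of 17 for TIMP and ADAMTS genes, 3 and 2 of 14 for the IL-6 family, 4 and 5 of 16 for CC and CX3C chemokines, and 3 and 2 of 25 for unfolded protein and ATF4 stress.

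The effect of siR-2 was then set beside that of siR-1, which targets the same gene, by a direct contrast of the siRNAs in the IL-17 cells. With siR-2 1208 of 19906 genes (6.07%) were higher and 1914 (9.62%) lower than with siR-1 by the same rule. 4930523C07Rik had a log2 difference of −0.58 (edgeR adjusted p = 3.06e-04) and was not called. The mitosis list lay lower with siR-2 in 27 of 31 genes and higher in 1, with a median of −0.92, and summed to 1473 to 1576 CPM with siR-1. Contractile genes were lower in 8 of 16 and higher in none, with a median of −0.54. Fn1 had 10933, 10777 and 10222 CPM with siR-1, above Scrambled, and its log2 difference was −1.63 (edgeR adjusted p = 7.08e-17). Cxcl1 also lay on the other side of Scrambled with siR-1, at 624, 607 and 651 CPM, with a difference of −1.67 (edgeR adjusted p = 3.59e-15). Serpinb2 had 62.8, 56.9 and 62.9 CPM with siR-1, and its difference was 1.54 (edgeR adjusted p = 1.40e-13). Nrk, near Scrambled with siR-1, differed by −2.99 (edgeR adjusted p = 1.19e-13). In these genes the siRNAs differed well beyond the spread between libraries.

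Of 37 interferon-stimulated genes 1 was higher and 3 were lower with siR-2 than with siR-1, under the 6.07% and 9.62% of all genes. Their median was 0.07, and the list summed to 1164 to 1398 CPM with siR-1. In the IL-17 list 2 of 27 were higher and 8 lower with siR-2, with a median of 0.09, and in the NRF2 list 10 of 29 were higher and 3 lower. Mmp3 stood at 1489, 1424 and 1556 CPM with siR-1, near its level with siR-2, with a difference of 0.13. The comparisons of each siRNA with Scrambled share the Scrambled libraries, and the direct contrast compares no Scrambled library.

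Whether siR-2 acted differently under IL-17 than in untreated CFs was tested as a difference of differences in 1 fit of 18 libraries. The effect differed by at least 1 on the log2 scale in 35 of 21219 genes, 16 more positive under IL-17 (0.0754%) and 19 more negative (0.0895%). None of the 37 interferon-stimulated, 31 mitosis, 31 replication, 16 contractile or 29 NRF2 genes was among them, which at such low shares over all genes says little about the lists. The median difference of the interferon-stimulated genes was −0.51, and those of the other 4 lists lay between −0.03 and 0.05. In untreated cells these lists had median log2 fold changes of −0.56, −1.65, −1.02, −1.09 and 0.81. Among the untreated Scrambled libraries replicate 3 held liver RNA too, at 199 CPM over the 49 genes.

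**Figure D5:**
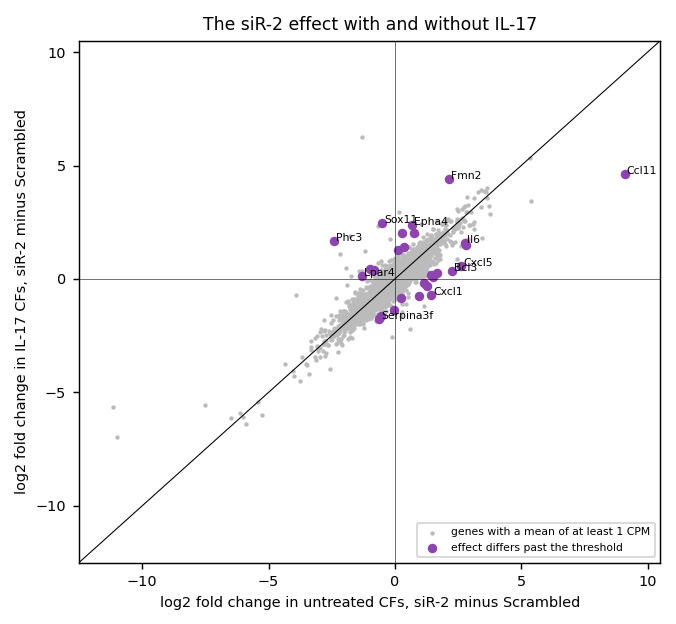
Log2 fold change of siR-2 over Scrambled in IL-17 CFs (y axis) against that in untreated CFs (x axis) for the 13091 genes whose mean reached 1 CPM, with the line of equal effects. Purple points are the 27 genes of these whose effects differ past the limit, such as Cxcl1 at 1.44 without and −0.69 with IL-17, below the line.

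The IL-17 list held 6 of the 35 genes, 5 with a smaller rise or a fall under IL-17. Il6 had 20.2, 19.3 and 18.7 CPM in untreated Scrambled CFs and 129.8, 128 and 139 CPM in untreated siR-2 CFs, so that its log2 fold change was 2.77 without and 1.58 with IL-17 in this fit. Cxcl5 had 29.8, 29.6 and 27.9 CPM in untreated Scrambled and 175, 170.0 and 188 CPM in untreated siR-2 CFs, with log2 fold changes of 2.61 without and 0.57 with IL-17. Both genes were lower in untreated Scrambled cells than in the Scrambled cells under IL-17. In that comparison the stimulus cannot be told apart from a run difference between the untreated and IL-17 libraries. Cxcl1 rose with siR-2 in untreated cells, from 2.75, 2.57 and 1.76 to 6.29, 6.58 and 6.33 CPM, and fell under IL-17, a difference of −2.13 (standard error 0.172, edgeR adjusted p = 8.07e-06). Steap4 had opposite directions too, at 0.96 without and −0.75 with IL-17. Cebpd, a C/EBP factor induced by IL-17, had log2 fold changes of 1.42 without and 0.16 with IL-17, and Il33 the reverse order, 0.77 and 2.04. Cebpd and the next 4 genes, which lie outside the list, are named after their values were seen. Bcl3, a nuclear IκB protein, had 2.27 without and 0.34 with IL-17, and Socs3, the feedback inhibitor of IL-6 signalling, 1.26 and −0.33. Epha4, an ephrin receptor, had 0.67 without and 2.36 with IL-17, and Sox11, a transcription factor of progenitor cells, had −0.49 and 2.47. Ccl11 was called too, but the untreated Scrambled libraries held none of it, and its fitted difference is no measure of size.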

How the data were processed

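RNA-Seq libraries of CFs were analysed from the table of estimated counts per gene that the authors deposited for the IL-17 experiment, with the table of untreated CFs for the difference of differences. Per the labels and the methods of the study, the authors trimmed reads with cutadapt, aligned them to GRCm38 with HISAT2, quantified genes with StringTie and compared groups with DESeq2. The deposited values are whole numbers derived from coverage, so that 1 read pair is worth up to 6 estimated counts and 3 read pairs, taken as the floor, up to 18. Estimates from coverage assign reads of near-identical genes by the quantifier's own rules, which bears on the Sprr2, Gsta, Gbp, Tgtp and similar families, and strand was not stated. Totals differed little between the 6 libraries compared, and the precision of a value is set mainly by the gene's own count.

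The 9 libraries of the experiment (siR-2, siR-1 and Scrambled, 3 each) entered 1 fit in R 4.3.3 with edgeR 4.0.16 (limma 3.58.1), with TMM scaling, the filterByExpr filter and the robust quasi-likelihood test with Benjamini-Hochberg adjustment. Standard errors were derived from the F statistic. The limit of 1.5-fold at an adjusted p of 0.05 is that of the methods of the study for IL-17 cells. The script was tested on simulated data. Genes were named by rule: the targeted gene, the 12 largest rises and 12 largest falls described in the text (1 of the rises is not reported here), the genes the study names for IL-17 cells, and in each of 36 role lists and 11 marker lists the first members and the largest called changes. Other names were chosen after their values were seen, and not all of them are marked so, such as Pttg1, Fap and the interferon-stimulated genes not called. The comparison, its lists and the rule were all chosen with earlier results of these data known. Alternatives were DESeq2 1.42.0, RLE size factors, other filters on low counts, another limit, the compared libraries alone, removal of hepatocyte genes, counts divided by 6, a replicate block, and leaving out libraries. Promoter windows were matched to genes by symbol. No libraries held identical values and no pair of replicates stood apart (chi-square per degree of freedom of 2.19 to 3.51 over the estimated counts), so none was counted as a duplicate. Since 1 read pair gives several estimated counts, this ratio does not show whether replicates differed by more than sampling noise. Samples with the same replicate number did not deviate together (correlations from −0.06 to 0.05), and the numbers were not taken as pairs.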

Additional observations from a re-analysis of the deposited data

Results flagged for a closer look

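The genes below were picked out because the effect of siR-2 (log2 fold change over Scrambled) differed between IL-17-stimulated and untreated CFs in edgeR's test of that difference over 18 libraries. The effect was more negative under IL-17 for Il6 by −1.19 (standard error 0.0581, edgeR adjusted p = 5.45e-13), Cxcl5 by −2.04 (adjusted p = 7.10e-18), Cxcl1 by −2.13 (adjusted p = 8.07e-06), Cebpd by −1.26 (adjusted p = 5.45e-13), Bcl3 by −1.94 (adjusted p = 2.36e-11), Socs3 by −1.59 (adjusted p = 9.43e-11) and Steap4 by −1.71 (adjusted p = 0.00196). For Ccl11 the fitted difference was −4.46 (adjusted p = 0.0488), with no count in any untreated Scrambled library, so that its size depends on the prior count of the fit. The effect was more positive under IL-17 for Il33 by 1.26 (edgeR adjusted p = 0.00107), Epha4 by 1.70 (adjusted p = 6.39e-08), Fmn2 by 2.27 (adjusted p = 0.00359) and Sox11 by 2.96 (adjusted p = 2.60e-05). Fmn2 was under the floor of 18 estimated counts in every Scrambled library under IL-17, and the size of its difference is likewise no reliable measure. The untreated and IL-17 libraries came as separate tables, and a run difference shared by all libraries of a table cancels in this contrast only where it acts alike on siR-2 and Scrambled, which was not tested.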

How the results depend on the processing

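With a limit of 1 on the log2 scale, 702 genes were higher and 1547 lower than Scrambled, and 452 higher and 832 lower than siR-1. With a limit of 1.5-fold for the difference between IL-17 and untreated cells, 42 genes were higher and 61 lower. All other settings kept these counts within 1.5 times of those reported. Leaving out each library in turn gave 1480 to 1553 genes higher and 2594 to 2719 lower than Scrambled, 1120 to 1190 higher and 1782 to 1919 lower than siR-1, 14 to 22 higher and 18 to 27 lower for the difference between IL-17 and untreated cells, and log2 fold changes of −3.52 to −3.35 for 4930523C07Rik. With the replicate number as a block there were 1556 genes higher and 2650 lower than Scrambled, and 1174 and 1852 against siR-1. The difference gave 16 and 18 genes, and 4930523C07Rik had −3.43. The block changed no call of the 129 genes followed below. Of 129 genes followed, each through the settings that tested it, 126 kept their direction and side of the limit. The 129 did not include every gene named above, and Cxcl11 and some marker genes were left out. Without Scrambled 1 and 3, the marker Rgs5 went from 0.61 to 0.56, under the limit, and Alb from −6.14 to 0.55. Cxcl5, at 0.56, was called higher at 0.63 without Scrambled 1 and 3 and at 0.59 without siR-2 library 2. Ccl2, at −0.58, was called lower in 5 settings at −0.59 to −0.60. Keap1, at −0.59, was not called in 5 settings at −0.58 to −0.56. Medians of the role lists were followed through DESeq2 and the fit without Scrambled 1 and 3. Of these 72 medians 58 stayed within the SD of the list's median between the siR-2 libraries. Without Scrambled 1 and 3 the IL-1 and TNF families went from 0.29 to 0.09 and the WNT pathway from −0.45 to −0.28. The cause of these shifts was not tested. Genes under the floor of 18 estimated counts in a group have no reliable fold, and replicates may be technical.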
